A study of Mus musculus with 3 samples.

Results

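The genes described here encode the enzymes of 3 conjugation families and of the carboxylesterases in the mouse. They were taken by symbol: every gene named Ugt, Sult, Gst (classes a, k, m, o, p and t) or Ces followed by its number, without pseudogenes. The RefSeq gene table holds 83 such genes, and 71 of them had a usable named probe on the array, among 20546 named genes in all. They comprise 15 UDP-glucuronosyltransferases (Ugt), 20 cytosolic sulfotransferases (Sult), 20 glutathione S-transferases (Gst) and 16 carboxylesterases (Ces). The rule uses no measured value, but the genes were chosen with earlier results of these data known. A further 11 genes had no named probe (Ces1h, Ces2h, Gsta1, Sult2a5, Ugt1a1, Ugt1a2, Ugt1a5, Ugt1a7c, Ugt1a8, Ugt1a9 and Ugt2a2). The only spot of Ces1b was marked as non-uniform on 2 of the 3 arrays and was left out, at 0.25 in the SiO2-3TF-3C spleen, 2.83 in liver and dim in the SiO2 spleen on the scale used below.

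RNA of female mice was measured in 3 groups on single-colour Agilent arrays, 1 a group. The SiO2-3TF-3C spleen came from spleens that received SiO2 (silica) together with a treatment named 3TF-3C, which the labels do not spell out. The series design calls these spleens hepatized. Normal liver tissue served as the positive control. The SiO2 spleen came from spleens given SiO2 alone and is the control of the series design. Both spleen groups therefore carry SiO2, and spleens were taken on day 82. The series design speaks of pools of 5 cell or spleen samples within groups. Whether the liver was pooled too, and the strain and age, are not given in the labels. With 1 array a group there is no replicate and no test, and precision is limited by the number of arrays. Genes are described by a rule of size, at least 2-fold.

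Glucuronosyltransferases, sulfotransferases and glutathione S-transferases attach a polar group to drugs, steroids, bile acids and reactive electrophiles, so that these can be excreted. Each family draws on its own activated donor: UDP-glucuronic acid, the sulfate donor PAPS, or glutathione. Carboxylesterases hydrolyse ester drugs and lipid esters in the endoplasmic reticulum, and some are secreted into plasma. Hepatocytes are the richest source of many of these enzymes, and several sulfotransferases of the mouse liver are known to be more abundant in females.

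Many of the genes share a chromosome: all 16 carboxylesterases on chromosome 8, 9 Ugt2 genes and 3 Sult1 genes on chromosome 5, 9 sulfotransferases on chromosome 7, 7 Gstm genes on chromosome 3 and 3 Ugt1a genes on chromosome 1. Related genes of a family (paralogs) may share signal, and without probe sequences this could not be checked. Counts within a family are therefore not counts of independent readings. The series holds no sequence of its own, so promoters were read from RefSeq (build GRCm38.p6, 250 bases before to 50 after each start site). A promoter was matched for 59 of the 71 genes. An antioxidant response element, the pattern through which oxidants and electrophiles are known to raise transcription of glutathione S-transferase genes, was searched as TGACNNNGC on both strands. It was found in 3 of 59 promoters (5.08%), against 14% of all 27025 genes with a promoter. All 3 are glutathione S-transferases (Gsta3, Gstm5 and Gstm7), so that 3 of 18 promoters of that family held it (16.7%). The windows below show the element in capitals, each read 5′ to 3′ on the strand of the gene, because these are the only genes of the 59 in which it was found.
Gsta3, chr1:21240429-21240507, plus strand: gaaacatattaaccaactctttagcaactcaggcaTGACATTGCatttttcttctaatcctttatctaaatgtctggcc
Gstm5, chr3:107895777-107895853, plus strand: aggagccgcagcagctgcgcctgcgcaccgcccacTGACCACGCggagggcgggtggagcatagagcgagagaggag
Gstm7, chr3:107931700-107931778, minus strand: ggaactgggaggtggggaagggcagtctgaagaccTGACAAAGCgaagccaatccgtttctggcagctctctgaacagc

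Between the spleens the 3 genes differed by 3.98 for Gsta3, 1.09 for Gstm5 and 1.07 for Gstm7 on the log2 scale, each higher in the SiO2-3TF-3C spleen. The median of all Gst genes with a fold was 1.07. With another background correction (normexp) Gstm5 and Gstm7 differed by 0.79 and 0.30. Whether the element bears on these differences was not tested. Against liver the SiO2-3TF-3C spleen differed by -2.42 for Gsta3, -0.54 for Gstm5 and -3.41 for Gstm7. The HNF4 element, searched as CAAAGTCCA on both strands, was found in 1 of 59 promoters (1.69%), that of Sult1b1, against 0.555% of all promoters. No promoter of these genes held both elements. A match is a description of the letters in a window, not a shown binding site.

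Of 43020 spots per array, 81.3% were well above background on the SiO2-3TF-3C spleen array, 77.2% on the liver array and 79.9% on the SiO2 spleen array, and 0 were saturated. Levels are log2 of the scanner's processed signal minus the 75th percentile of the same array, so a level of 0 is that percentile and a difference of 1 is 2-fold. Labelled tissues were set against marker lists. The 21 hepatocyte markers summed to a scaled intensity of 477 in the SiO2-3TF-3C spleen, 1367 in liver and 10.7 in the SiO2 spleen, where Ttr, Apoa1, Fgg, Serpina3k and Cyp3a11 were not well above background. Alb was at 6.06 in the SiO2-3TF-3C spleen, 6.25 in liver and -3.94 in the SiO2 spleen. The B cell markers summed to 90.6, 52.5 and 132 in the same order of tissues, and the T cell markers to 27.6, 14.7 and 41.2. Both lists were well above background throughout, in liver too. For all 7 B cell and all 8 T cell markers the SiO2-3TF-3C spleen lay below the SiO2 spleen, each by under 2-fold, and the median of either list was -0.57. Relative to liver the SiO2-3TF-3C spleen was higher for 6 of 7 B cell markers (median 0.77) and 7 of 8 T cell markers (median 1.17). Between the spleens the median of all genes was -0.15, and 8 of 9 housekeeping genes were lower too (median -0.18). In whole-tissue RNA scaled within each array, fewer cells of a type, less RNA per cell and more RNA of other cells cannot be told apart.

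In the SiO2-3TF-3C spleen, genes of all 4 families were higher than in SiO2 spleen, and none of those with a fold was lower by 2-fold or more. A fold could be given for 65 genes: 44 were higher by 2-fold or more, 33 of them by 4-fold or more, while 0 were lower by 2-fold or more and 21 differed less. Over all 17640 genes with a fold, 5.24% were higher and 1.39% lower by that size. The median log2 difference was 2.05 over the 65 genes and -0.15 over all genes. The 21 hepatocyte markers were all at least 2-fold higher as well, with a median of 8.37, and the part of that cell type's RNA in the differences of these enzymes was not tested. Of the 44 folds, 19 are bounds: the brightest probe of the gene was well above background in the SiO2-3TF-3C spleen but not in the SiO2 spleen, and the dim side was set to the lowest measured signal of that array, or to its own signal where that was higher. Well above background were 64 of the 71 genes in the SiO2-3TF-3C spleen, 63 in liver and 45 in the SiO2 spleen by the brightest probe. Over all probes the SiO2 spleen had 46, because a dimmer probe of Gstm3 was measured there, and the bound of Gstm3 therefore holds for its brightest probe and not for the gene.

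**Figure D1:**
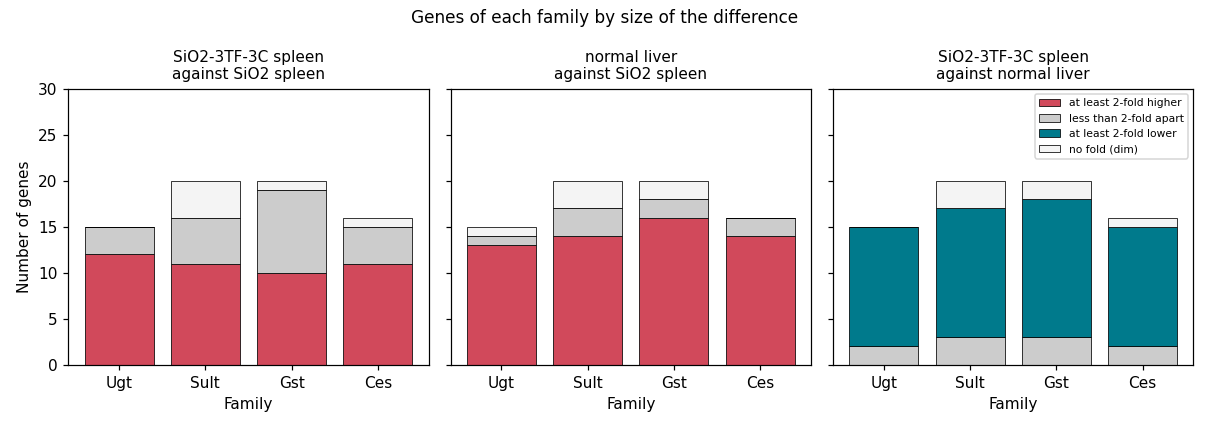
Number of genes in each family by size of the difference, for the 3 comparisons. The bars count genes at least 2-fold higher, less than 2-fold apart, at least 2-fold lower and with no fold, because both sides were dim or the bound was under 1; 44 genes were higher in the SiO2-3TF-3C spleen relative to the SiO2 spleen, 57 in liver relative to the SiO2 spleen, and 55 were lower in SiO2-3TF-3C spleen relative to liver.

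Normal liver stood above the SiO2 spleen in the same families by more. Of 65 genes with a fold, 57 were higher by 2-fold or more in liver and 0 at least 2-fold lower, with 15.4% and 17% over all 17354 genes, and the median difference was 4.61. Between the SiO2-3TF-3C spleen and liver, 55 of 65 genes were at least 2-fold lower in the spleen and 0 at least 2-fold higher, with 15.9% and 10.7% over all 17213 genes. The median of that difference was -2.75. The 3 comparisons share their arrays, so that their values are given side by side and are not independent of one another. A value after ± combines the signal errors that the scanner software gives for both arrays of a log2 difference. Its median was 0.23 for either comparison with the SiO2 spleen and 0.20 for the SiO2-3TF-3C spleen against liver. These errors leave out all spread between animals.

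**Figure D2:**
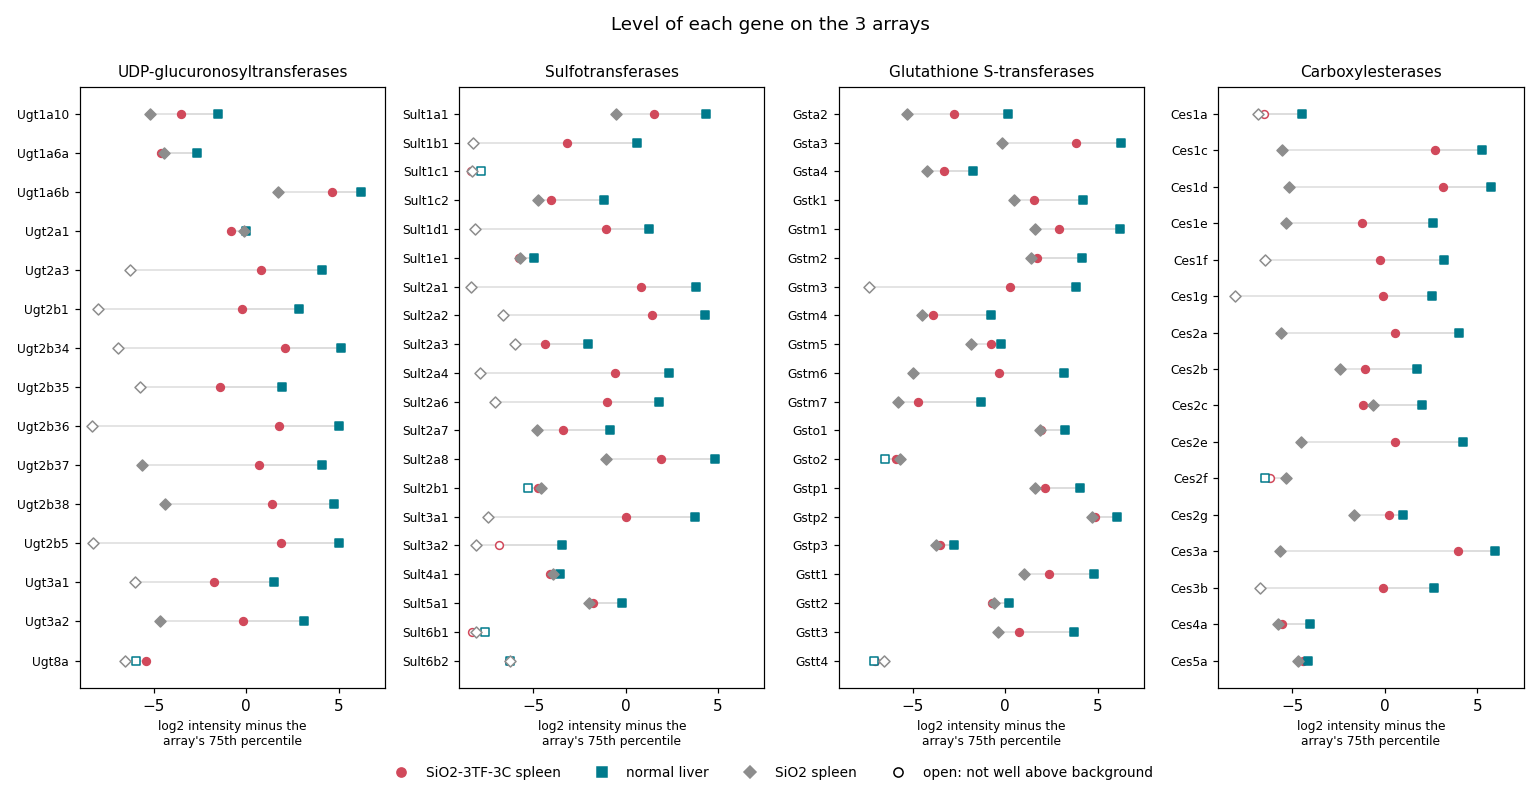
Level of each of the 71 genes on the 3 arrays, in log2 intensity minus the array's 75th percentile, by family. Circles are the SiO2-3TF-3C spleen, squares normal liver and diamonds the SiO2 spleen; open symbols were not well above background. Ces3a, at 3.98, 5.98 and -5.66, has the widest gap between the spleens among genes measured on both spleen arrays. Ugt2b5 and Ugt2b36 are plotted further apart, but with SiO2 spleen signals not well above background. Levels of different genes are not comparable because each has its own probe.

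Among the glucuronosyltransferases, 12 of 15 were higher by 2-fold or more in SiO2-3TF-3C spleen relative to the SiO2 spleen, with a median difference of 4.51. The Ugt2 genes, which conjugate steroids, bile acids and many drugs, had 8 of 9 higher with a median of 6.34. Ugt2b37 was at 0.70 in the SiO2-3TF-3C spleen, 4.11 in liver and -5.64 in the SiO2 spleen. It was thus 80.7-fold higher in SiO2-3TF-3C spleen relative to the SiO2 spleen (6.34 ± 0.32 on the log2 scale) and 10.6-fold lower than in liver. Its signal in the SiO2 spleen was close to the lowest measured level of that array, -6.04. With normexp background correction the family median was 2.98. Ugt2b38 was at 1.41, 4.73 and -4.41 in the SiO2-3TF-3C spleen, liver and the SiO2 spleen, a difference of 5.82 between the spleens.

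Ugt2b34, Ugt2b5 and Ugt2b36 had the highest bounds of the family and were not well above background in SiO2 spleen. They were at least 286-fold, 238-fold and 223-fold higher in SiO2-3TF-3C spleen, and at least 2301-fold, 2119-fold and 2100-fold higher in liver. The SiO2-3TF-3C spleen differed from liver by -3.01, -3.15 and -3.24 log2 units for these 3 genes. Ugt2a3, Ugt2b1 and Ugt2b35 were likewise dim in the SiO2 spleen alone, with bounds of 6.85, 5.83 and 4.30 in the SiO2-3TF-3C spleen. Every one of these 6 genes was measured in both the SiO2-3TF-3C spleen and liver, with differences from -3.38 to -3.01.

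The exception among the Ugt2 genes was Ugt2a1, known as the isoform of the olfactory epithelium. It was at -0.85 in the SiO2-3TF-3C spleen, -0.02 in liver and -0.14 in the SiO2 spleen, so that all 3 tissues lay within 2-fold. Ugt8a, which makes the galactosylceramide of myelin, was measured only in the SiO2-3TF-3C spleen, at -5.40, with a bound of 1.56-fold over the SiO2 spleen and 1.12-fold over liver. The Ugt3 genes, whose human relatives use other sugars than glucuronic acid, were both higher. Ugt3a2 was at -0.15 in the SiO2-3TF-3C spleen, 3.14 in liver and -4.66 in the SiO2 spleen, and Ugt3a1 had a bound of 4.30.

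Of the Ugt1 locus, only Ugt1a6a, Ugt1a6b and Ugt1a10 had named probes. Its products share their last exons and differ in the first one, and since the files give no probe sequences, a signal cannot be assigned to 1 first exon. Ugt1a6b, of the phenol-conjugating isoforms, was at 4.65 in the SiO2-3TF-3C spleen, 6.23 in liver and 1.72 in the SiO2 spleen, a difference of 2.93 ± 0.20 between the spleens. Its dimmer probe gave 1.30 for the same difference and -3.27 in place of -1.58 against liver. Ugt1a6a was at -4.61, -2.66 and -4.46 in the SiO2-3TF-3C spleen, liver and the SiO2 spleen, so that the spleens differed by -0.15. Ugt1a10 was 3.16-fold higher in SiO2-3TF-3C spleen by its brighter probe, whereas its other probe differed by 0.03.

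Among the sulfotransferases, 11 of 16 with a fold were higher by 2-fold or more in SiO2-3TF-3C spleen relative to the SiO2 spleen, with a median of 2.44. The Sult2a genes, which sulfate bile acids and hydroxysteroids, were higher in 7 of 7, with 5 of the 7 as bounds. Signal shared between these 7 paralogs could not be separated. Sult2a8, measured on all 3 arrays, was at 1.93 in the SiO2-3TF-3C spleen, 4.82 in liver and -1.09 in the SiO2 spleen. It was 8.12-fold higher than in SiO2 spleen (3.02 ± 0.20) and 7.44-fold lower than in liver. Sult2a7 was at -3.38, -0.87 and -4.81 in the same order of tissues, a difference of 1.43 between the spleens. Sult2a1 and Sult2a2 were at 0.82 and 1.41 in the SiO2-3TF-3C spleen, at 3.81 and 4.29 in liver, and not well above background in SiO2 spleen. Their bounds were 117-fold and 175-fold over the SiO2 spleen.

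Another 3 Sult2a genes were well above background in the SiO2-3TF-3C spleen and in liver. Sult2a4 was at least 43.4-fold, Sult2a6 at least 32.0-fold and Sult2a3 at least 3.16-fold higher in SiO2-3TF-3C spleen, and the SiO2 spleen signal was dim for all 3. Against liver they differed by -2.93, -2.86 and -2.33 log2 units. Sult1d1, a catecholamine sulfotransferase of the mouse, had a bound of 30.9-fold over the SiO2 spleen and was 5.04-fold lower than in liver.

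The 6 sulfotransferases known as female-predominant in mouse liver (Sult2a1, Sult2a2, Sult2a3, Sult2a4, Sult2a6 and Sult3a1) were all dim in the SiO2 spleen. All 6 were higher in the SiO2-3TF-3C spleen, with a median bound of 5.74, and in liver, with a median bound of 9.09. All 6 were at least 4-fold lower in SiO2-3TF-3C spleen relative to liver, with a median of -2.90. Sult3a1, an amine sulfotransferase, was at 0.01 in the SiO2-3TF-3C spleen and 3.76 in liver, with a bound of 66.3-fold over the SiO2 spleen. All samples were female, so no difference between sexes was measured.

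Of the other sulfotransferases, Sult1a1, the main phenol sulfotransferase, was at 1.53 in the SiO2-3TF-3C spleen, 4.32 in liver and -0.51 in the SiO2 spleen, and so 4.13-fold higher than in SiO2 spleen. Sult1b1, which sulfates thyroid hormones, and Sult3a1 stood furthest below liver in the family, by 13.8-fold and 13.5-fold. The bound of Sult1b1 over the SiO2 spleen was 7.16-fold. Sult1c2 was 1.63-fold higher than in SiO2 spleen and Sult5a1 1.14-fold. Both were more than 2-fold higher in liver relative to the SiO2 spleen. Sult1e1, the estrogen sulfotransferase, was low on all 3 arrays (-5.77 in the SiO2-3TF-3C spleen, -4.95 in liver, -5.74 in the SiO2 spleen), and the spleens differed by -0.04 ± 0.42. Sult3a2 was measured only in liver, with a bound of 6.06-fold over the SiO2 spleen and 6.74-fold over the SiO2-3TF-3C spleen. Sult1c1, Sult6b1, Sult6b2 and, of the next family, Gstt4 were well above background on 0 of the 3 arrays.

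A group of 6 isoforms best known outside the liver was described together: the brain enzyme Sult4a1, the cholesterol sulfotransferase Sult2b1 of skin, Sult6b1, Ugt2a1, Ugt8a and Ces5a. None of the 5 with a fold between the spleens reached 2-fold, and their median was -0.15. None of the 4 with a fold in liver against the SiO2 spleen reached it either. The list was chosen with earlier results of these data known, and it leaves out Gstm5, best known from brain and testis. Gstm5 was higher by 1.09 between the spleens and by 1.63 in liver against the SiO2 spleen. Sult4a1 was at -4.10 in the SiO2-3TF-3C spleen, -3.58 in liver and -3.95 in the SiO2 spleen. Ces5a, known as cauxin from the urine of cats, was at -4.43 in the SiO2-3TF-3C spleen, -4.17 in liver and -4.68 in the SiO2 spleen, within 2-fold in every pair. Sult2b1 was measured in both spleens, which differed by -0.19, and was not well above background in liver.

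Of the glutathione S-transferases, 10 of 19 were higher by 2-fold or more in SiO2-3TF-3C spleen relative to the SiO2 spleen, and the median was 1.07. That median was the lowest of the 4 families with bounds included, but among genes measured on all 3 arrays it was 1.07 for Gst and 0.71 for Sult. With normexp background correction the Gst median was 0.53, under 2-fold. Just above the 2-fold line lay Gstm7 (1.07), Gstk1 (1.08), Gstm5 (1.09) and Gstt3 (1.14), and just below it Gsta4 (0.93). With normexp background correction Gsta2, Gstm5, Gstm7 and Gstt3 no longer reached 2-fold, and neither did Sult2a7 and Ugt1a10. In the SiO2 spleen 19 of the 20 genes were well above background on at least 1 probe, and 18 on the brightest. Liver was nevertheless at least 2-fold higher than the SiO2 spleen in 16 of 18, with a median of 3.74.

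The alpha class, which reduces lipid peroxides and conjugates reactive aldehydes, had 2 of 3 genes higher. Gsta3, the isoform that detoxifies aflatoxin in the mouse, was at 3.82 in the SiO2-3TF-3C spleen, 6.25 in liver and -0.16 in the SiO2 spleen, a 15.8-fold difference between the spleens (3.98 ± 0.20). Gsta2 was at -2.75, 0.17 and -5.32 in the same order, a difference of 2.57. Gsta4, which conjugates the lipid aldehyde 4-hydroxynonenal, differed by 1.91-fold.

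Of the mu class, 5 of 7 genes were higher by 2-fold or more in SiO2-3TF-3C spleen, with a median of 1.09, and 7 of 7 were higher in liver relative to the SiO2 spleen, with a median of 4.48. Gstm1 was at 2.91 in the SiO2-3TF-3C spleen, 6.21 in liver and 1.60 in the SiO2 spleen, so that the spleens differed by 2.48-fold and liver was 9.81-fold above the SiO2-3TF-3C spleen. Gstm6 was at -0.34, 3.16 and -5.02 and differed by 4.68 between the spleens, but by 1.83 on another of its probes. Gstm3 had a bound of 78.4-fold on its brightest probe, while a dimmer probe, measured on all 3 arrays, differed by 0.41. Against liver the probes of Gstm3 differed by -3.56 and -3.24. Gstm7 was at -4.72, -1.30 and -5.79 in the SiO2-3TF-3C spleen, liver and the SiO2 spleen, and so 10.7-fold below liver. Gstm2 and Gstm4 differed by 0.35 and 0.58 between the spleens, less than 2-fold.

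The pi, omega and theta classes held 6 of the 9 glutathione S-transferases that differed less than 2-fold between the spleens. The pi-class genes, of which Gstp1 is widely expressed, were measured in all 3 tissues, and 0 of 3 reached 2-fold between the spleens, with differences of 0.57 for Gstp1, 0.20 for Gstp2 and 0.23 for Gstp3. Gstp1 was at 2.15 in the SiO2-3TF-3C spleen, 4.01 in liver and 1.59 in the SiO2 spleen. Gsto1, which reduces dehydroascorbate, was at 1.94, 3.24 and 1.87 in the same order, and Gsto2 differed by -0.22 between the spleens. Gstt1, a theta-class enzyme that acts on halogenated solvents, was 2.52-fold higher in SiO2-3TF-3C spleen, and Gstt3 was 2.20-fold higher. Gstt2 was at -0.74 in the SiO2-3TF-3C spleen, 0.22 in liver and -0.59 in the SiO2 spleen, within 2-fold throughout. Gstk1, the class of mitochondria and peroxisomes, was 2.12-fold higher than in SiO2 spleen and 6.27-fold lower than in liver.

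The carboxylesterases held the 3 largest differences of the 4 families among genes measured on both spleen arrays. Of 15 with a fold, 11 were higher by 2-fold or more in SiO2-3TF-3C spleen relative to the SiO2 spleen, with a median of 5.08. Ces3a had processed signals of 8139 in the SiO2-3TF-3C spleen, 24560 in liver and 11.3 in the SiO2 spleen, or levels of 3.98, 5.98 and -5.66. It was 798-fold higher in SiO2-3TF-3C spleen relative to the SiO2 spleen (9.64 ± 0.30) and 3.98-fold lower than in liver. Its signal in the SiO2 spleen was close to the lowest measured level of that array, -6.04.

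Of the Ces1 genes, 5 of 5 with a fold were higher in the SiO2-3TF-3C spleen, with a median of 5.95. Ces1d, a microsomal triacylglycerol hydrolase, was at 3.15 in the SiO2-3TF-3C spleen, 5.77 in liver and -5.17 in the SiO2 spleen, and 319-fold higher than in SiO2 spleen (8.32 ± 0.28). Ces1c, which is secreted into mouse plasma, was at 2.72, 5.28 and -5.54 in the same order, a 306-fold difference between the spleens. Ces1g and Ces1f had bounds of 62.0-fold and 54.1-fold. Ces1e, known as egasyn because it holds beta-glucuronidase in the endoplasmic reticulum, was at -1.25 in the SiO2-3TF-3C spleen, 2.61 in liver and -5.35 in the SiO2 spleen. It stood 17.1-fold above the SiO2 spleen and 14.6-fold below liver (-3.87 ± 0.20), the lowest value among the 61 genes measured on both of those arrays. Ces1a was measured only in liver, at -4.47, with a bound of 2.98-fold over the SiO2 spleen.

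The Ces2 genes were mixed, with 4 of 6 higher in the SiO2-3TF-3C spleen. Ces2a was at 0.56 in the SiO2-3TF-3C spleen, 4.02 in liver and -5.60 in the SiO2 spleen (6.17 ± 0.35 between the spleens), and Ces2e was 33.7-fold higher than in SiO2 spleen and 13.1-fold lower than in liver. Ces2b was 2.52-fold and Ces2g 3.61-fold higher than in SiO2 spleen. Ces2c was at -1.20 in the SiO2-3TF-3C spleen, 2.01 in liver and -0.62 in the SiO2 spleen by its brightest probe, a difference of -0.58 between the spleens. Its other probes, both measured on all 3 arrays, differed by 1.30 and 1.09, so the direction depends on the probe. Ces2f was measured only in the SiO2 spleen, at -5.36, and the bound for the SiO2-3TF-3C spleen was 1.79-fold lower.

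Of the remaining genes, Ces3b had a bound of 60.8-fold over the SiO2 spleen and was 6.74-fold lower than liver. Ces4a was low on all 3 arrays, at -5.54 in the SiO2-3TF-3C spleen, -4.03 in liver and -5.79 in the SiO2 spleen, a difference of 0.25 between the spleens. The 8 genes listed as liver microsomal carboxylesterases (Ces1d, Ces1e, Ces1f, Ces1g, Ces2a, Ces2c, Ces3a and Ces3b) had 7 of 8 higher in the SiO2-3TF-3C spleen relative to the SiO2 spleen. In liver 8 of 8 were higher than in SiO2 spleen, and 8 of 8 were lower in SiO2-3TF-3C spleen relative to liver, with a median of -2.98. Many of these genes are close paralogs, and without probe sequences signals shared between them cannot be separated.

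The distance to liver was then described for the 57 genes higher by 2-fold or more in liver relative to the SiO2 spleen. The liver array both chose these genes and enters the difference, so the values are a description. Of the 57, 44 were higher by 2-fold or more in SiO2-3TF-3C spleen relative to the SiO2 spleen, and 55 were at least 2-fold lower there than in liver. For the 55 measured in both tissues the median difference was -2.88, or 7.36-fold lower, with a range from -3.87 to -0.54. The family medians were -3.22 for Ugt, -2.88 for Sult, -2.54 for Gst and -2.75 for Ces. The same median was -1.91 for the 21 hepatocyte markers. It was -1.77 for the 2527 genes measured in both tissues among all 2670 that were as much higher in liver. These sets were not matched for the size of the difference between liver and the SiO2 spleen, so their medians are not directly comparable.

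Gstm5 and Ces2g were the exceptions, within 2-fold of liver. Gstm5, a mu-class gene best known from brain and testis, was at -0.78 in the SiO2-3TF-3C spleen, -0.24 in liver and -1.87 in the SiO2 spleen. Ces2g was at 0.20, 0.96 and -1.65 in the same order. For both genes the SiO2-3TF-3C spleen lay between the other 2 tissues.

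**Figure D3:**
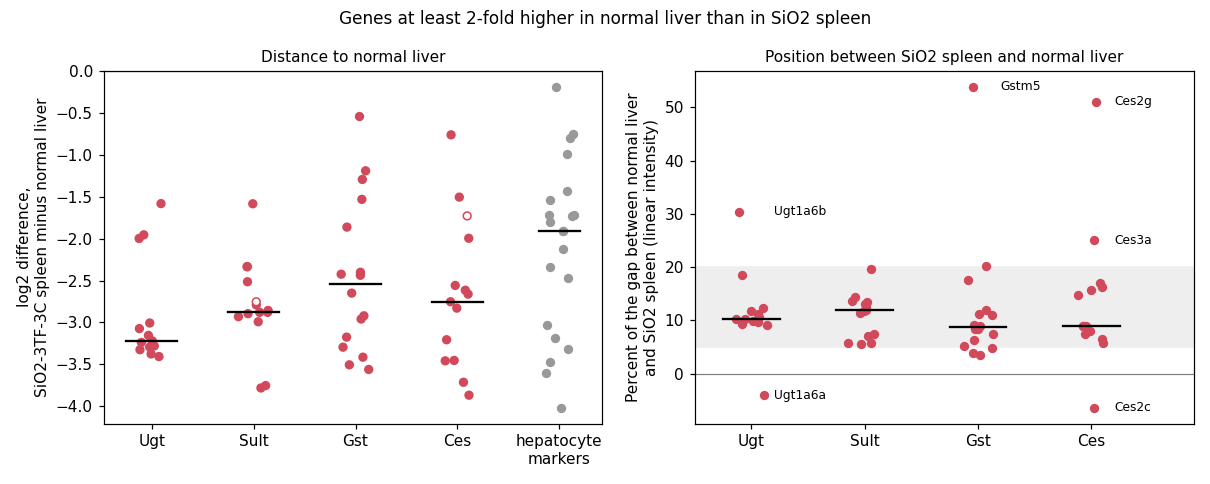
Left, log2 difference of the SiO2-3TF-3C spleen minus normal liver for genes higher by 2-fold or more in liver relative to the SiO2 spleen, by family, with the 21 hepatocyte markers at the right; lines are medians and open circles are bounds. Right, position of each gene between the SiO2 spleen and liver on the linear scale, in percent of the gap between them. The band from 5 to 20% is shaded and holds 47 of 57 genes. Among these 47, Ces1a and Sult3a2 were dim in both spleens.

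On the linear scale, the position of the SiO2-3TF-3C spleen between the SiO2 spleen and liver was computed for the same 57 genes, as the difference between the spleens in percent of that between liver and the SiO2 spleen. The median was 10.2%, and 47 of 57 genes lay between 5 and 20%. The family medians were 10.2% for Ugt, 11.9% for Sult, 8.74% for Gst and 9.00% for Ces. The 7 Sult2a genes, whose probes may share signal, lay between 11.8% and 14.5%. Ugt2b37, Ugt2b38 and Ugt2b34 lay at 9.33%, 9.82% and 12.4%, and Ces3a and Ces1d at 25.1% and 16.3%. The highest values were 53.9% for Gstm5, 51.1% for Ces2g and 30.4% for Ugt1a6b. Ces2c and Ugt1a6a were below 0, at -6.34% and -4.02%. The median was 26.6% for the hepatocyte markers, of which 8 of 21 lay between 5 and 20%, and 7.48% for all 2670 liver-high genes, of which 1389 did. These sets were not matched here either, and the liver array enters both the choice of genes and the percentage. Their medians are therefore not directly comparable.

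The enzymes that supply the donors differed less between the spleens than in liver. Of 12 such genes, 2 were higher by 2-fold or more in SiO2-3TF-3C spleen, with a median of 0.24, and 8 were so in liver against the SiO2 spleen, with a median of 2.03. The 2 were Papss2 (1.05 ± 0.20) and Gclm (1.02 ± 0.20), both just above the 2-fold line. Papss2, which makes PAPS, was at 1.88 in the SiO2-3TF-3C spleen, 4.74 in liver and 0.83 in the SiO2 spleen. Gclm, the modifier subunit of the first enzyme of glutathione synthesis, was at 1.25, 2.54 and 0.23 in the same order. The sulfate carrier Slc26a1 and Papss2 were furthest below liver, at -3.02 and -2.86 relative to it.

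Of 20 other enzymes of conjugation and hydrolysis, 12 were higher by 2-fold or more in SiO2-3TF-3C spleen, with a median of 1.38, and 0 were lower. Pon1, the paraoxonase of plasma lipoproteins, was at 3.27 in the SiO2-3TF-3C spleen and 5.58 in liver, with a bound of 9.31 over the SiO2 spleen. Aadac, an esterase of the endoplasmic reticulum, had a bound of 7.72. In liver 18 were higher than in SiO2 spleen and 2 lower, namely the membrane transferase Mgst2 (-1.80) and the prostaglandin synthase Hpgds (-1.55). Glyat, which conjugates glycine to small acids, and Baat, which conjugates taurine to bile acids in the mouse, were furthest below liver, at -3.55 and -3.54 relative to it. Of 5 enzymes with a fold listed as deconjugating (the beta-glucuronidase Gusb, Arsa, Arsb, Ggh and Dpep1), 0 reached 2-fold in any comparison. Whether each acts on conjugates made by these families was not examined.

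**Figure D4:**
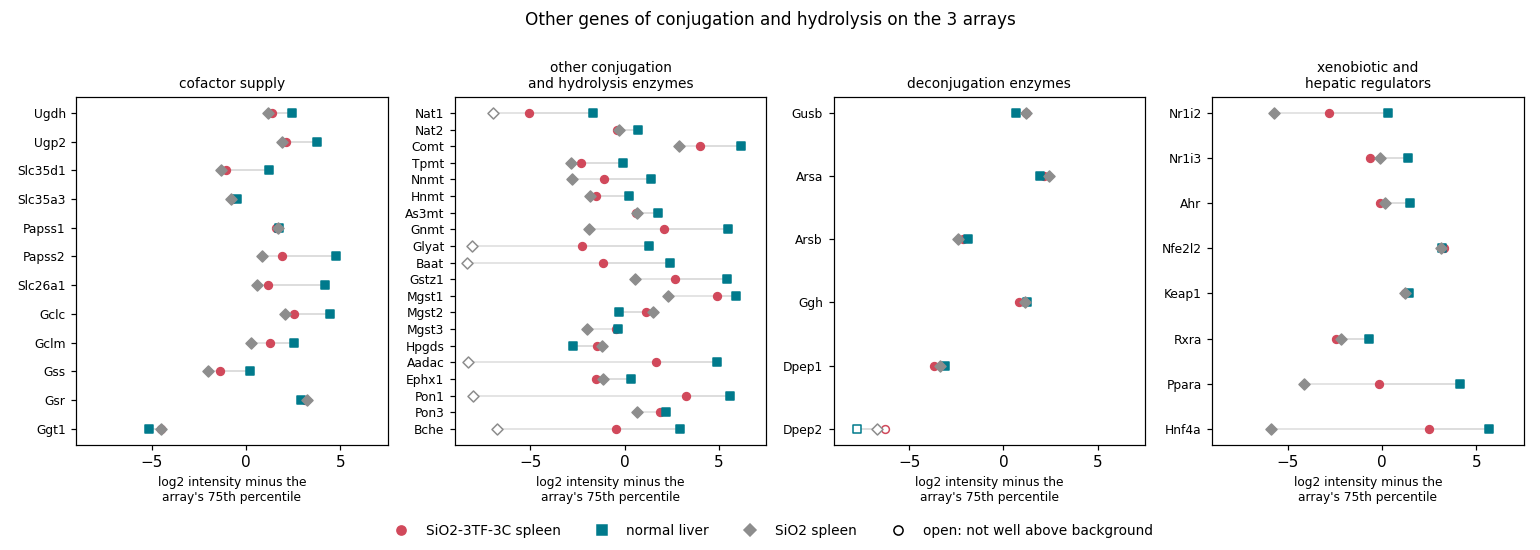
Levels of other genes of conjugation and hydrolysis on the 3 arrays, in log2 intensity minus the array's 75th percentile, with the same symbols as for the families. Of the donor-supply genes 2 of 12 were higher by 2-fold or more in SiO2-3TF-3C spleen relative to the SiO2 spleen, of the other enzymes 12 of 20, of the deconjugating enzymes 0 of 5 with a fold and of the regulators 3 of 8.

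Among 8 regulators of these genes, 3 were higher by 2-fold or more in SiO2-3TF-3C spleen relative to the SiO2 spleen. Hnf4a, a nuclear receptor of hepatocytes, was at 2.49 in the SiO2-3TF-3C spleen, 5.68 in liver and -5.88 in the SiO2 spleen, the last close to the lowest measured level of that array. Ppara, the receptor for fatty acids, was at -0.14, 4.14 and -4.14 in the same order. Nr1i2, the pregnane X receptor, was higher by 2.91, whereas Nr1i3, the constitutive androstane receptor, differed by -0.55. The oxidant-response factor Nfe2l2 was at 3.30, 3.19 and 3.15, within 2-fold on all 3 arrays. Of the cytochrome P450 genes, which act before conjugation, 47 of 86 with a fold were higher by 2-fold or more in SiO2-3TF-3C spleen, with a median of 1.88.

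Kidney and intestine also make enzymes of these families, and their markers were summed. Kidney markers summed to 0.353 in the SiO2-3TF-3C spleen, 0.457 in liver and 0.412 in the SiO2 spleen, and Lrp2 was not well above background in either spleen. Intestinal markers summed to 0.796, 6.78 and 0.266, with Vil1 and Cdx2 not well above background in either spleen. Fabp2, the fatty acid binding protein of enterocytes, was the brightest member, at -0.71 in the SiO2-3TF-3C spleen, 2.58 in liver and -3.79 in the SiO2 spleen, and so 8.44-fold higher in SiO2-3TF-3C spleen relative to the SiO2 spleen. The erythroid markers summed to 45.2 in the SiO2-3TF-3C spleen, 8.39 in liver and 19.1 in the SiO2 spleen, with 6 of 7 higher by 2-fold or more in SiO2-3TF-3C spleen relative to the SiO2 spleen. The Kupffer cell and macrophage markers summed to 76.2, 80.6 and 79.0, but 2 of the 7 differed by 2-fold or more between the spleens. Clec4f, the lectin of Kupffer cells, was at 0.51 in the SiO2-3TF-3C spleen, 3.36 in liver and -5.90 in the SiO2 spleen, an 84.8-fold difference between the spleens. Its SiO2 spleen signal was close to the lowest measured level of that array. Vsig4, a complement receptor of tissue macrophages, was at -0.45, 2.44 and -4.57 in the same order, a 17.3-fold difference. The other 5 lay within 2-fold between the spleens. The part of these cell types in the values of the enzymes was not tested.

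Several probes measured the same gene in 20 of the 71. Between the spleens, the probes differed by more than 1 log2 unit in 4 of the 11 genes with at least 2 measured probes, namely Ces2c, Gstm6, Ugt1a10 and Ugt1a6b. Against liver this was so in 1 of 17, Ugt1a6b. Gstm3 is outside the 11, because only 1 of its 2 probes was measured in both spleens. Its brightest probe gave a bound of 6.29 between the spleens and the other a difference of 0.41.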

How the data were processed

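Total RNA was extracted with a blood RNA kit and depleted of globin messages, per the labels' protocols, and Cy3-labelled cRNA was hybridised to 3 arrays. The deposited scanner files hold the processed spot intensity of each array, background-subtracted and not scaled between arrays. Per the file headers they were made with Feature Extraction 11.0.1.1 on array design 026655 (build mm9), while version 9.1 of Agilent Feature Extraction stands in the submitters' processing notes. The authors' deposited table holds log2 values, each column correlating at 0.993 to 0.996 with its own array, and how it was normalized is not given in the labels.

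Controls and spots that the scanner marked as non-uniform or as outliers were left out (283 on the SiO2-3TF-3C spleen array, 469 on the liver array, 182 on the SiO2 spleen array), spots of a probe were averaged, and the array's 75th percentile was subtracted from log2 intensity (signals of 515, 390 and 569 in the same order). Probes were named through their RefSeq accession (27038 of 39112) and the RefSeq table of GRCm38.p6. That build is not the array's, so no array coordinates are given. The brightest probe stood for a gene. A probe was measured where at least 0.5 of its spots were well above background. Where only 1 side was measured the fold is a bound, a gene dim on both sides has no fold, and no fold is given where the bound would be under 1. The lowest measured levels were -6.20, -5.57 and -6.04.

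The genes, lists and rule for naming genes were chosen with earlier results of these data known. Named were, per family and comparison, the 4 largest and 2 smallest measured differences, the 3 highest bounds, genes against their family's direction, members of the subsets described, and the 2 largest differences of each pathway list. The position between the SiO2 spleen and liver, and other genes named, were chosen after the values were seen. The bound rule was tested on simulated data. Python 3.11.15, numpy 2.4.6, pandas 2.3.3, R 4.3.3 and limma 3.58.1 were used. The 9 alternatives were normexp background correction (offset 50, on the median signal), quantile normalization, median scaling, housekeeping scaling, the authors' log2 values, the mean of all probes, only genes measured on every array, no filter on dim genes, and marked spots kept. Protein sequences were not used here, and 1 gene of the lists is not reported here.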

Additional observations from a re-analysis of the deposited data

How the results depend on the processing

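The counts and medians kept their direction under all 9 alternatives, but several medians moved by more than 1.5 times, and 0 of the single-gene differences of 2-fold or more that were measured on both arrays reversed. The median difference of the SiO2-3TF-3C spleen from the SiO2 spleen was 2.05 and ranged from 1.22 to 2.83: it was 1.51 with normexp, 2.83 with the authors' deposited values, 1.66 with no filter on dim genes and 2.30 with marked spots kept. For liver against the SiO2 spleen it was 4.38 with normexp and 4.96 with the authors' values, and for the SiO2-3TF-3C spleen against liver it was -2.41 with normexp. Among the 42 genes measured on every array, 25 were higher by 2-fold or more in SiO2-3TF-3C spleen relative to SiO2 spleen (median 1.22) and 36 in liver (median 3.76), and 34 were lower in SiO2-3TF-3C spleen than in liver (median -2.47). The family medians between the spleens were 4.51 for Ugt, 2.44 for Sult, 1.07 for Gst and 5.08 for Ces. They were 2.98, 1.46, 0.53 and 3.03 with normexp, the Gst median being under 2-fold. With the authors' values they were 4.36, 2.38, 1.05 and 5.09, over 10, 10, 15 and 11 genes with a fold. The main setting had 15, 16, 19 and 15, so the 2.83 given above was taken over fewer genes. Among genes measured on every array the family medians were 2.93 for Ugt and 0.71 for Sult, and the Sult median was 1.54 with no filter on dim genes. Among genes measured on every array the Ugt median was 4.51 in liver against the SiO2 spleen (8.35 with bounds) and -1.997 in the SiO2-3TF-3C spleen against liver (-3.15 with bounds). With the mean of all probes or with no filter, 1 gene was at least 2-fold lower in liver than in SiO2 spleen, Ces2f (-1.12), which is dim in liver. Normexp took 6 genes under 2-fold between the spleens: Gsta2 (0.95), Gstm5 (0.79), Gstm7 (0.30), Gstt3 (0.997), Sult2a7 (0.54) and Ugt1a10 (0.65). It also took Ces4a (0.67) and Ugt1a6a (0.97) under it in liver against the SiO2 spleen, and in the SiO2-3TF-3C spleen against liver (-0.65 and -0.94), where quantile normalization took Gstp2 (-0.90). Between the spleens the authors' values took Gstm7 (0.98) and the mean of probes Ugt1a10 (0.84) under it. The cause was not tested.

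No paired analysis was possible because each group has 1 array, and for the same reason no replicate could be left out. Scaling moved the median of all genes between the spleens by more than 0.1, to 0.03 with housekeeping genes against -0.15. Depth of signal limits the 19 bounds, whose true folds may be larger, and the near-background genes such as Sult1e1.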
